A study of Rattus norvegicus with 49 samples.

Results

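The genes described are 9 members of the antioxidant and glutathione synthesis response in rat liver: Nqo1, Gclc, Gclm, Txnrd1, Srxn1, Hmox1, Gpx2, Slc7a11 and Ephx1. They were chosen by name as known members of this pathway, with earlier results of these data known. On the arrays they were represented by 12 of 30367 probes, or by 9 of 15154 genes that could be named through RefSeq accessions. Txnrd1, Gpx2 and Slc7a11 had 2 probes each. Of the 9 genes, 7 had a probe bright enough in liver to be tested, and Gclm and Slc7a11 did not.

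F344 rats, 7 to 8 weeks old at the start, received furan by gavage for 90 days, 5 days a week, at 2, 0.5, 0.12 or 0.03 mg/kg in corn oil, and controls received corn oil alone. Liver RNA was hybridised to 2-colour arrays against a universal rat reference RNA. Every group of 1 sex and dose held 5 rats, except males at 0.03 mg/kg, of which 4 arrays were deposited and 3 could be used. All values below are log2 ratios of liver (Cy5) over reference (Cy3), so that 0 means equal signal in both channels. Since the dyes were not swapped, a ratio was compared only between rats and never between genes.

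On the 48 arrays used, between 37.9% and 71.1% of liver spots were well above background, against 5.06% on the 1 male array at 0.03 mg/kg that was left out. The arrays lay on 8 slides. Slides 5 and 6 held 10 arrays, none of them a control, and had a median of 43.5% of liver spots well above background, against 61.6% on the other slides, so slide was fitted as a block. Ratios of single rats, and overlaps between groups, keep slide effects unless their removal is stated. Of 9 hepatocyte markers, 9 were well above background and their mean log2 ratio lay between 5.06 and 7.01 in control males. Changes were tested with limma across 17661 probes, and a probe is said to be called where the Benjamini-Hochberg adjusted p was at most 0.05 and the fold at least 1.5.

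NRF2, the product of Nfe2l2, is a transcription factor that the adaptor KEAP1 holds at a low level in unstressed cells. Electrophiles and oxidants modify KEAP1, NRF2 then accumulates in the nucleus and, with a small MAF protein, binds antioxidant response elements near its target genes. In liver these targets make glutathione, reduce quinones and peroxides, regenerate thioredoxin and break down haem. Furan itself is oxidised in hepatocytes to a reactive dialdehyde that binds glutathione and protein thiols.

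RefSeq (build GRCr8) gave the region from 250 bases before to 50 bases after the transcription start for 8 of the 9 genes. The core of the antioxidant response element, TGACNNNGC, was searched on both strands, and the related core TGAGNNNGC was added after the promoters had been seen. Of 33469 rat promoters of this length, 12.1% held TGACNNNGC, 17.2% held TGAGNNNGC and 0.415% held TGACTCAGC in full. The 3 promoters below are those of the members that led the results in males (Gpx2 and Srxn1) and in females (Ephx1); capitals mark the matches, which read as the core itself or as its reverse complement.
Gpx2, chr6:101229984-101230283, minus strand: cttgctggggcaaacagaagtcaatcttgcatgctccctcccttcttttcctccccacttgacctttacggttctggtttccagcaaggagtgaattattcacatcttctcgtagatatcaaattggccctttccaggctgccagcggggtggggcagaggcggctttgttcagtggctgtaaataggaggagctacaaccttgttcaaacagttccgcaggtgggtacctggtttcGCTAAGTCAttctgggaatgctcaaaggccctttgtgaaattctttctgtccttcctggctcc
Srxn1, chr3:161064562-161064861, plus strand: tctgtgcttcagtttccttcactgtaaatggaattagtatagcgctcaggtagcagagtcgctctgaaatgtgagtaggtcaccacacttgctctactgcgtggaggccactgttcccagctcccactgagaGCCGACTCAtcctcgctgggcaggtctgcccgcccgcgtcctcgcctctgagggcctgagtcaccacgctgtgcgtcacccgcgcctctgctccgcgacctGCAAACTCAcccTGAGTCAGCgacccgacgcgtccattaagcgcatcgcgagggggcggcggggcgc
Ephx1, chr13:95263068-95263367, minus strand: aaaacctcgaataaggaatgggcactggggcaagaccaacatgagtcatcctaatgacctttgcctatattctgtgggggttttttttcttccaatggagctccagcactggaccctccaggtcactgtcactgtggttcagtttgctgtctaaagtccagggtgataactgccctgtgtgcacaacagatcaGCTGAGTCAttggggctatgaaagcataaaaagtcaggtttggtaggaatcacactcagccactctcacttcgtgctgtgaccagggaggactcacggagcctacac
Gpx2 held 1 match to TGACNNNGC, read on the opposite strand, whose first base lay at -13 from the start. Srxn1 held 3 matches, all to TGAGNNNGC, at -118, -17 and -5. The window shown for Ephx1, which belongs to the second of its 2 listed starts, held the full TGACTCAGC on the opposite strand at -57, whereas the window of the other start held no match. Gclm and 1 of 2 Txnrd1 windows held 1 match each, and those of Nqo1, Gclc and Slc7a11 held none within these 300 bases. A match is a run of letters and not a measured binding site.

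The clearest change among these genes was in Gpx2, the gastrointestinal form of glutathione peroxidase, which reduces hydrogen peroxide and lipid peroxides with glutathione. In control males its log2 ratio was -4.59, -4.59, -4.12, -4.00 and -3.87, and in males at 2 mg/kg it was -3.13, -2.05, -1.85, -1.14 and -0.52. All 5 treated males lay above all 5 controls. The change was 2.45 ± 0.33 (SE) on the log2 scale, or 5.48-fold, with an adjusted p of 2.06e-06 by limma. The second Gpx2 probe also rose without overlap of the groups, by 1.21 ± 0.19 (adjusted p = 1.96e-05), so the size of the change depended on the probe. At 0.5 mg/kg the 5 males ranged from -4.23 to -2.45 and the change was 0.84 ± 0.33, which did not pass (adjusted p = 0.316), and the step from 0.5 to 2 mg/kg was called at 1.61 ± 0.33 (adjusted p = 0.00313). At 0.12 and 0.03 mg/kg the changes were 0.09 ± 0.32 and 0.24 ± 0.39. By the second probe all 5 males at 0.5 mg/kg (-2.11 to -1.54) lay above all 5 controls (-2.37 to -2.18), on ratios that keep slide effects. Males 62 and 63 of this group lay on slides 6 and 5, which held no control. With slide as a block, the change of the second probe at 0.5 mg/kg was 0.30 ± 0.19 and was not called (adjusted p = 0.574 by limma). How many of all probes separate 5 treated males from 5 controls was not counted at either dose.

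The 3 slides that held both a control and a 2 mg/kg male gave Gpx2 differences of 0.87, 2.98 and 3.36. In females Gpx2 was between -3.86 and -2.40 in controls and between -3.72 and -1.98 at 2 mg/kg, and the groups overlapped. The female change was 0.48 ± 0.34 (adjusted p = 0.399), with a 95% confidence interval from -0.21 to 1.16.

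**Figure D1:**
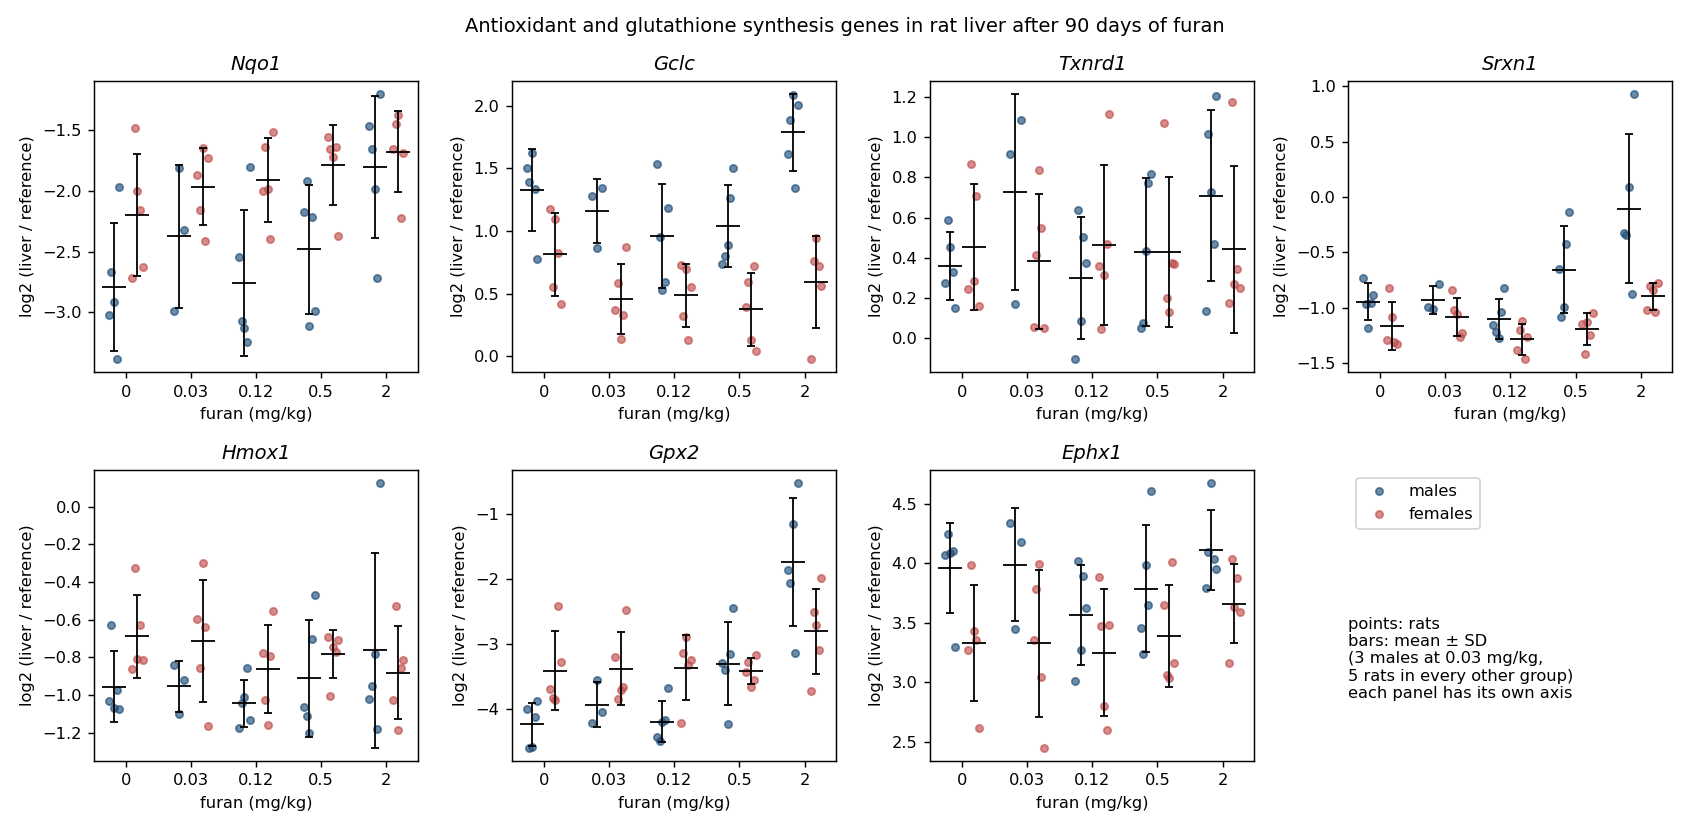
Log2 ratio of liver over reference for each rat (points) by furan dose in mg/kg, males in blue and females in red, for the 7 genes with a tested probe; black bars give the group mean and SD, and each panel has its own vertical axis. Gpx2 in males at 2 mg/kg, from -3.13 to -0.52, lies above all control males, while Srxn1, Nqo1 and Gclc at that dose overlap with controls. The ratios shown keep slide effects.

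Srxn1 encodes sulfiredoxin, which repairs over-oxidised peroxiredoxins. It was called in males at 2 mg/kg, where it rose by 0.83 ± 0.18 or 1.78-fold (adjusted p = 0.000858). Control males were at -1.18, -0.97, -0.95, -0.89 and -0.73 and treated males at -0.88, -0.34, -0.33, 0.09 and 0.93. In all, 4 of the 5 treated rats thus lay above every control, and rat 86 lay within the control range. Without rat 87, the highest, the rise was 0.57 with an adjusted p of 0.00893, which is below the fold limit. Within slides the differences were -0.15, 1.04 and 1.81. Control females ranged from -1.33 to -0.82 and females at 2 mg/kg from -1.03 to -0.78, a change of 0.20 ± 0.19 (adjusted p = 0.554).

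Nqo1 encodes a quinone reductase that uses NADH or NADPH for a 2-electron reduction. Its probe was well above background on 43 of the 48 arrays, and the 5 others were all males below 2 mg/kg. In every male group below 2 mg/kg such an array gave the highest value. These were control male 6 (-1.97), male 25 at 0.03 mg/kg (-1.82), male 52 at 0.12 mg/kg (-1.81) and male 63 at 0.5 mg/kg (-1.92). Low signal thus limits the Nqo1 values of those groups. Control males were at -3.38, -3.02, -2.91, -2.67 and -1.97 and males at 2 mg/kg at -2.72, -1.98, -1.66, -1.47 and -1.21. On these ratios, which keep slide effects, 3 of 5 treated rats exceeded every control. With slide effects removed, control males ranged from -2.84 to -2.25 and males at 2 mg/kg from -2.18 to -1.44. With slide as a block the rise was 0.73 ± 0.15 or 1.66-fold (adjusted p = 0.000585), and within slides the differences were 0.30, 1.40 and 0.76. Nqo1 in males changed by -0.08 ± 0.16 at 0.5 mg/kg, and the step from 0.5 to 2 mg/kg was called at 0.82 ± 0.16 (adjusted p = 0.00182). With all 49 arrays and no slide block, the male change of Nqo1 was 0.98 and was lost as a call (adjusted p = 0.106 by limma). That fit held the factors the study's methods name (sex, treatment and their interaction), but not the study's own normalisation and test. It also included the dim array left out here. Of 16 alternatives, 3 lost the call of Nqo1 in males at 2 mg/kg, with limma adjusted p-values up to 0.137. Control females ranged from -2.72 to -1.49 and females at 2 mg/kg from -2.22 to -1.38, a change of 0.12 ± 0.16 (adjusted p = 0.691).

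Glutathione is made from glutamate, cysteine and glycine, and glutamate-cysteine ligase catalyses the rate-limiting first step; Gclc encodes its catalytic subunit and Gclm its modifier subunit. Gclc in control males was at 0.78, 1.34, 1.39, 1.5 and 1.62 and in males at 2 mg/kg at 1.34, 1.61, 1.89, 2.00 and 2.08. In all, 3 of the 5 treated rats were above every control. The change of 0.52 ± 0.20, or 1.44-fold, had an adjusted p of 0.0488 but stayed under the fold limit, so Gclc was not called against controls. It was called between 0.5 and 2 mg/kg in males, at 0.89 ± 0.20 (adjusted p = 0.00571), and its change at 0.5 mg/kg was -0.37 ± 0.20 (adjusted p = 0.497). In females the change at 2 mg/kg was -0.08 ± 0.20 (adjusted p = 0.837), and it was -0.35 ± 0.20 at 0.5 mg/kg.

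The Gclm probe was well above background on 0 of 48 arrays in the liver channel and on 0 in the reference channel, so it measured neither sample and nothing can be said of this subunit. Slc7a11, the transport subunit of the cystine/glutamate exchanger that brings in the cysteine precursor, was well above background in liver on 6 of 48 arrays by its better probe and on 0 by the other, although in the reference the probes passed on 48 and 46. The 6 arrays were 2 males at 0.5 mg/kg, 2 males at 2 mg/kg, 1 control female and 1 female at 0.5 mg/kg. It was not tested.

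Txnrd1 encodes cytosolic thioredoxin reductase, which keeps thioredoxin reduced with NADPH. Control males were at 0.15, 0.28, 0.33, 0.45 and 0.59 and males at 2 mg/kg at 0.13, 0.47, 0.73, 1.02 and 1.20. With slide effects removed, control males ranged from 0.22 to 0.43 and males at 2 mg/kg from 0.46 to 1.41. The change of 0.39 ± 0.13, or 1.31-fold, passed the adjusted p (0.0216) but not the fold limit. Without rat 87 it was 0.18 ± 0.09 (adjusted p = 0.207). The dimmer Txnrd1 probe, well above background on 29 of 48 arrays, gave 0.04 ± 0.11 (adjusted p = 0.814), so the probes disagreed. Females changed by 0.24 ± 0.13 at 2 mg/kg (adjusted p = 0.268).

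Hmox1 encodes haem oxygenase, which breaks haem down to biliverdin, iron and carbon monoxide. In control males it was at -1.08, -1.07, -1.03, -0.97 and -0.63 and at 2 mg/kg at -1.18, -1.02, -0.95, -0.78 and 0.13. Apart from rat 87, all treated males lay within or below the control range on these ratios. With slide effects removed, rats 81 (-0.75) and 84 (-0.82) also lay above the control range (-1.18 to -0.94). The change was 0.25 ± 0.14 in males (adjusted p = 0.201) and -0.13 ± 0.15 in females (adjusted p = 0.634). The 95% confidence intervals, from -0.03 to 0.54 in males and from -0.43 to 0.17 in females, did not reach a 1.5-fold change in either direction.

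Ephx1 encodes microsomal epoxide hydrolase, which opens reactive epoxides to diols. It was the member called in females: control females were at 2.61, 3.27, 3.35, 3.43 and 3.98 and females at 2 mg/kg at 3.16, 3.59, 3.63, 3.87 and 4.04. The groups overlapped, with 1 treated rat above all controls on these ratios. With slide effects removed, control females ranged from 2.84 to 3.72 and females at 2 mg/kg from 3.57 to 4.14. With slide as a block the rise was 0.78 ± 0.21 or 1.71-fold (adjusted p = 0.0241), and the 2 slides that held both a control and a 2 mg/kg female gave 1.26 and 0.05. The call was lost without control female 2, 9 or 11 or treated female 90 (adjusted p from 0.0532 to 0.0688), and without the slide block the change was 0.33 (adjusted p = 0.424). Ephx1 in males changed by 0.34 ± 0.20 at 2 mg/kg (adjusted p = 0.229), but with the liver channel alone by 1.08, which was called (adjusted p = 0.00292).

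**Figure D2:**
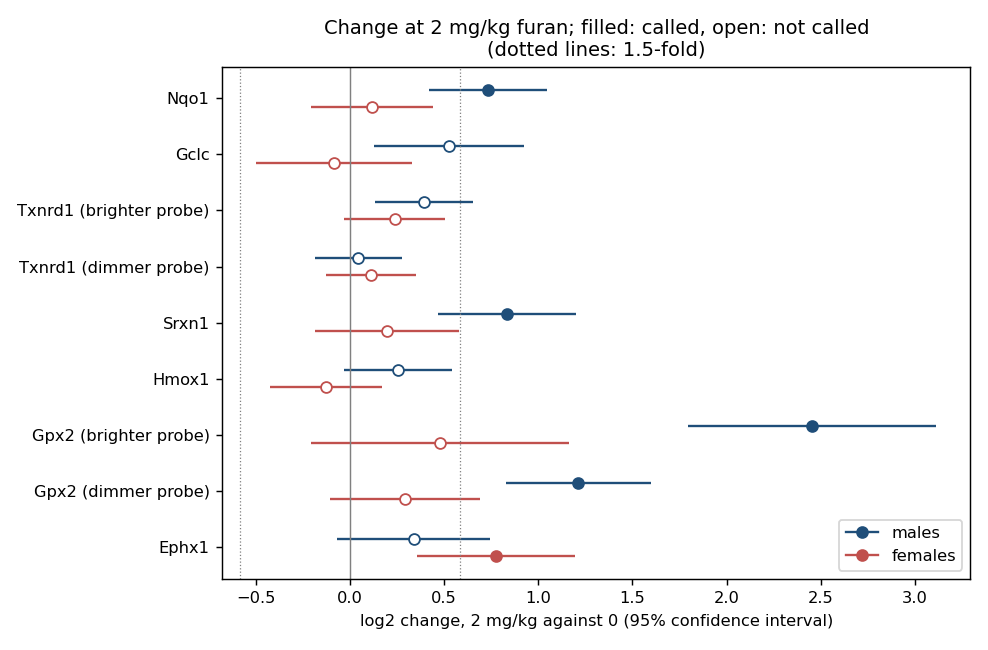
Log2 change at 2 mg/kg furan against same-sex controls (horizontal axis) for each of the 9 tested probes of 7 genes, males in blue and females in red, with 95% confidence intervals; filled points were called and dotted lines mark a 1.5-fold change. Gpx2 (both probes), Srxn1 and Nqo1 were called in males and Ephx1 in females.

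Counted by each gene's brighter probe, 3 of the 7 tested members were called in males at 2 mg/kg (Gpx2, Srxn1 and Nqo1), all higher, where 5.07% of all tested probes were called in either direction. All 7 changes were above 0, with a median of 0.52 beside -0.02 over all tested probes. In females at 2 mg/kg 1 of 7 was called, beside 1.40% of probes, and the median was 0.20 beside 0.01. Since 7 genes chosen with earlier results known are few, these counts describe the members and were not tested as a set.

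At lower doses 0 of 7 members were called by limma in either sex. The share of all probes called was 0.362%, 0.306% and 0% in males and 0.0283%, 0.0113% and 0.0170% in females at 0.5, 0.12 and 0.03 mg/kg. Of these 6 comparisons only males at 0.5 mg/kg held a member with an unadjusted p under 0.05, namely Gpx2. In the 5 others the count was 0. Over all probes, 1983 of 17661 had an unadjusted p under 0.05 by limma in males at 0.5 mg/kg. In the 5 others that number lay between 728 (males at 0.03 mg/kg) and 2688 (females at 0.5 mg/kg). For males at 0.03 mg/kg, where 0 of 17661 probes were called and 728 had an unadjusted p under 0.05, the 3 arrays limit the precision. Across all doses at once, a moderated F test passed for 4 members in males, Gpx2 (adjusted p = 3.89e-06), Nqo1 (0.000329), Srxn1 (0.000777) and Gclc (0.00429), where 18.2% of all probes passed. In females the F test passed for 0 of 7 members beside 2.99% of probes; the lowest was Ephx1 (adjusted p = 0.106, unadjusted p = 0.00849).

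**Figure D3:**
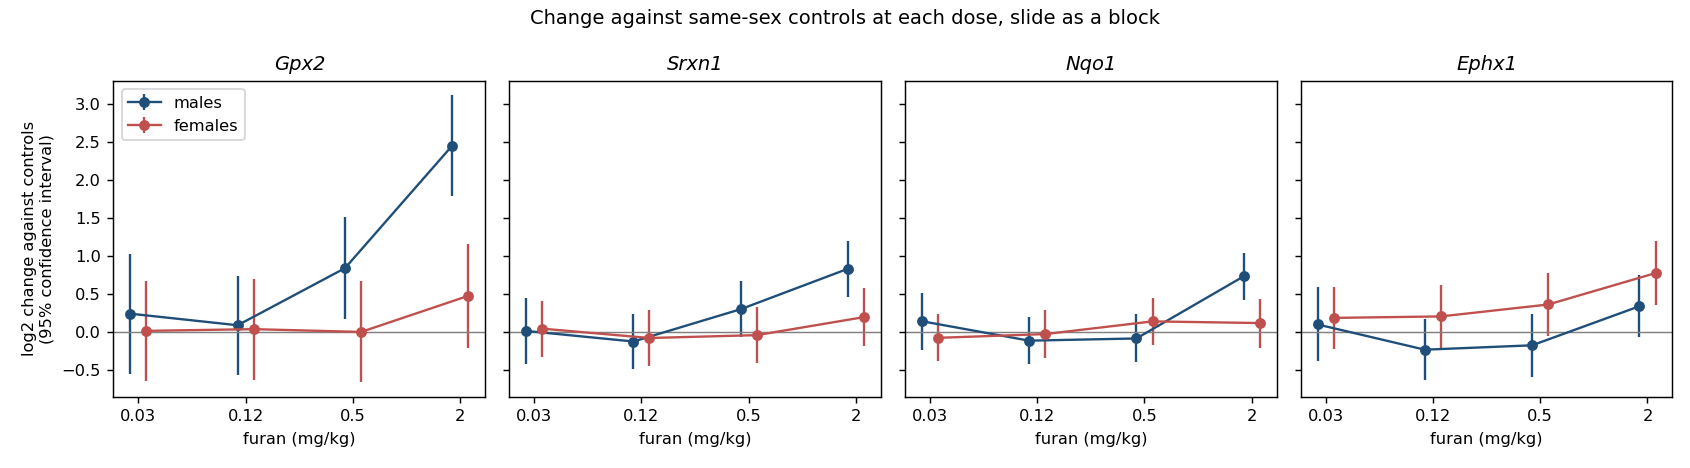
Log2 change against same-sex controls (vertical axis) at 0.03, 0.12, 0.5 and 2 mg/kg furan for Gpx2, Srxn1, Nqo1 and Ephx1, males in blue and females in red, with 95% confidence intervals from the fit with slide as a block. In males Gpx2 was at 0.84 at 0.5 mg/kg and 2.45 at 2 mg/kg, while Nqo1 was at -0.08 and then 0.73.

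Between 0.5 and 2 mg/kg, 3 of 7 members were called in males (Nqo1, Gclc and Gpx2) beside 1.12% of all probes, and 0 of 7 in females beside 0.0113%. In females Ephx1 alone had an unadjusted p under 0.05 by limma (0.0460), beside 1337 of 17661 probes. Without the slide block only Gpx2 was called in males, and with all 49 arrays and no block 0 members were.

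The difference between the sexes was tested as the male change minus the female change at 2 mg/kg. It was called for Gpx2, at 1.98 ± 0.45 (adjusted p = 0.0236), and for 0 of the 6 other tested members, beside 1.09% of probes. The dimmer Gpx2 probe gave 0.92 ± 0.26 (adjusted p = 0.0562). The call was lost in 6 of 16 alternatives, with adjusted p-values up to 0.886, and without control male 3, control female 11 or treated male 87 (0.0515 to 0.0930). For Nqo1 the difference was 0.62 ± 0.21 (adjusted p = 0.106), for Srxn1 0.64 ± 0.25 (0.154), for Gclc 0.61 ± 0.27 (0.214) and for Ephx1 -0.44 ± 0.28 (0.400). Without treated male 86, Nqo1 and Srxn1 were called as well (0.0386 and 0.0358), whereas without treated male 87 the Srxn1 difference was 0.31 ± 0.21 (adjusted p = 0.543). For the genes other than Gpx2, then, a call in 1 sex and not in the other was not shown to be a difference between the sexes.

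Controls of the 2 sexes already differed for some members. Gpx2 was lower in control males than in control females by 0.87 on the log2 scale (-0.87 ± 0.32, adjusted p = 0.0431) by its brighter probe, and Ephx1 was higher by 0.76 ± 0.19 (0.00414); these 2 of 7 were called, beside 6.42% of probes. The second Gpx2 probe gave -0.30 ± 0.18 (adjusted p = 0.245) and was not called. Nqo1 (-0.58 ± 0.15, adjusted p = 0.00456) and Gclc (0.55 ± 0.19, 0.0364) passed the adjusted p but not the fold limit. For Gpx2, 4 of the 5 males at 2 mg/kg (-3.13 to -0.52) lay above the highest control female (-2.40). Without the slide block 0 of 7 members were called between the controls, and the count was 1 without control male 4, control male 5 or control female 9.

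The 5 males at 2 mg/kg differed among themselves, and the same rats stood high for several members. After removal of slide effects, rat 87 was the highest of the 5 for 5 of 7 members and rat 84 for the other 2. The lowest place was shared between rat 86 (3 members), rat 81 (2) and rat 83 (2). Relative to the mean of control males, rat 87 stood at 3.54 for Gpx2, 1.67 for Srxn1, 1.08 for Txnrd1 and 1.04 for Hmox1, and rat 86 at 1.26, 0.23, 0.29 and -0.10. The lowest for Txnrd1 was rat 81 (0.12) and for Hmox1 rat 83 (-0.13). At 0.5 mg/kg rat 70 was the highest male for 6 of 7 members. Among females at 2 mg/kg, rat 82 was the lowest for 6 of 7.

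**Figure D4:**
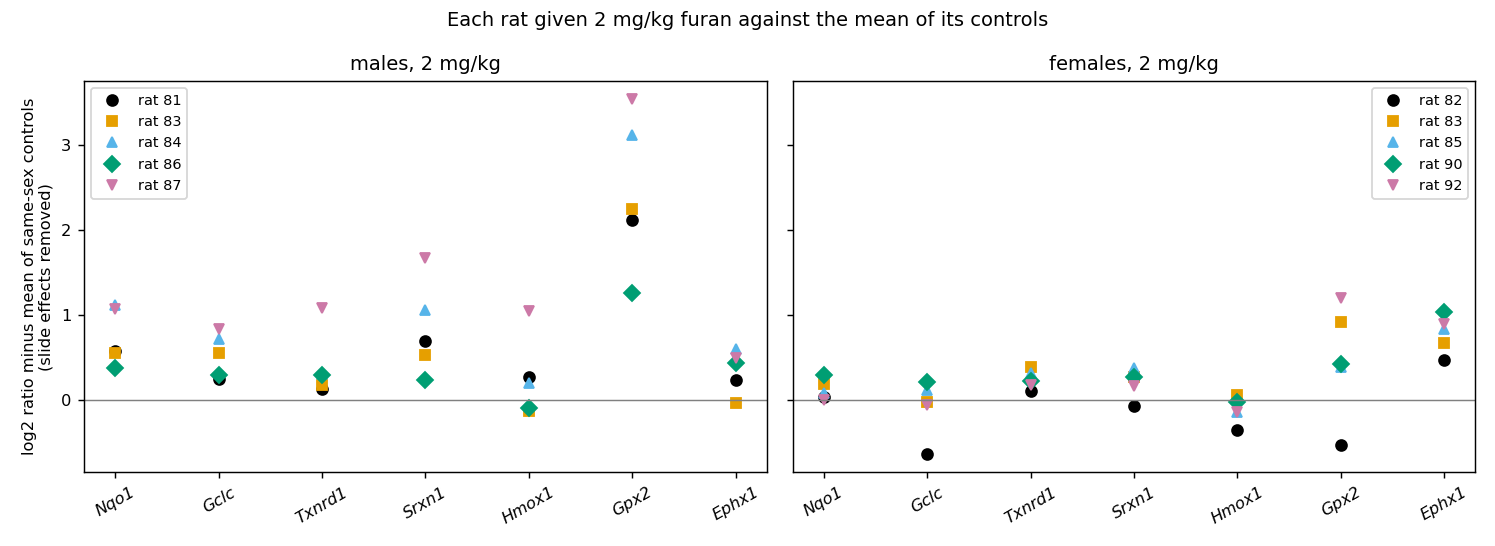
Log2 ratio of each rat at 2 mg/kg minus the mean of its same-sex controls (vertical axis), with slide effects removed, for the 7 tested genes; males on the left, females on the right, 1 symbol per rat. Male 87 is the highest for Gclc, Txnrd1, Srxn1, Hmox1 and Gpx2, with 3.54 for Gpx2, and male 86 is at 1.26 there; every female is above 0 for Ephx1.

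Over the 23 male arrays of all doses, with slide effects removed, the 21 pairs of members had Pearson correlations between 0.27 (Gclc with Hmox1) and 0.92 (Srxn1 with Gpx2). Over the 25 female arrays they lay between -0.22 and 0.56. These are descriptions: the points share slides, and in males they share the response at 2 mg/kg. The genes outside the group most alike to Gpx2 in males were Anxa7, Anxa5 and Gstp1 (r = 0.96 each), and those most alike to Srxn1 were Anxa5, Dynlt1 and Anxa4 (0.96, 0.96 and 0.95). Nqo1 was most like Epcam, Pcmt1 and Slc48a1 (0.88, 0.87 and 0.85), Gclc most like Cdh1, Hsp90aa1 and Fastkd2 (0.88, 0.88 and 0.87), Txnrd1 most like Rnps1, Ctnna1 and Itgb5 (0.87, 0.87 and 0.85), Hmox1 most like S100a6, Capg and Col6a2 (0.91, 0.91 and 0.90), and Ephx1 most like Htatip2, Hmgn3 and Rhoc (0.87, 0.85 and 0.83). In females the highest was Ephx1 with Gstm1, a glutathione transferase (0.90), and no other member reached above 0.81 (Txnrd1 with Riox1).

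The other lists put these members in their pathway. Of 14 other NRF2 targets tested, 4 were called in males at 2 mg/kg, all higher: Akr7a3, an aldehyde reductase (2.93 ± 0.35, adjusted p = 3.88e-07), Gstp1, a glutathione transferase (2.69 ± 0.30, 2.77e-07), Ftl1, the ferritin light chain (0.89 ± 0.19, 0.000734), and Ugdh, which makes UDP-glucuronate (0.86 ± 0.14, 4.30e-05). Their median was -0.05, and 8 of the 14 had values below 0. In females 2 of 14 were called, Akr7a3 (1.65 ± 0.36, 0.00658) and Gstp1 (1.10 ± 0.31, 0.0336). The male changes of Gstp1 and Ugdh exceeded the female ones by 1.59 ± 0.42 (0.0434) and 0.77 ± 0.20 (0.0392). At 2 mg/kg 0 of 8 regulators were called in either sex, with Nfe2l2 at -0.13 ± 0.16 (0.604) and Keap1 at -0.18 ± 0.12 (0.295) in males and at -0.11 ± 0.17 and 0.27 ± 0.12 in females. At the lower doses 2 genes of these lists were called, both lower and both in males at 0.12 mg/kg: Nfe2l2 itself (-0.69 ± 0.16, adjusted p = 0.0285) and Osgin1, an NRF2 target (-1.15 ± 0.28, 0.0449).

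Of 13 genes of the glutathione cycle none was called in either sex, with medians of -0.11 in males and 0.04 in females. In males 5 of the 13 passed the adjusted p below the fold limit, in both directions, and they are named after their values were seen. The share of all probes that passed the adjusted p alone was not counted. At 2 mg/kg, 6197 of 17661 tested probes had an unadjusted p under 0.05 by limma in males and 4236 in females. Counts of genes by adjusted p alone are therefore descriptions and do not set these lists apart from other probes. Gss, which adds glycine in the second step of glutathione synthesis (0.45 ± 0.09, adjusted p = 0.000293), and Gpx3, the plasma glutathione peroxidase (0.53 ± 0.14, 0.00513), were higher. The 3 lower ones were Chac2 (-0.57 ± 0.14, 0.00319) and Chac1 (-0.42 ± 0.11, 0.00424), which cleave glutathione, and Ggct, which acts on gamma-glutamyl peptides (-0.45 ± 0.13, 0.0104). In females 2 of 13 passed, Gss (0.42 ± 0.09, 0.00729) and Anpep, an aminopeptidase (0.56 ± 0.10, 0.00115), both higher. The 10 thioredoxin and peroxiredoxin genes, 4 superoxide and catalase genes and 6 genes of cysteine supply held 0 calls in either sex at 2 mg/kg, with male medians of 0.16, -0.35 and -0.11 and female medians of 0.18, -0.02 and 0.05. Below the fold limit some passed the adjusted p in males: 3 higher and 1 lower of the first list, 2 lower of the second and 1 lower of the third. In females 1 of the first list passed, higher, and 0 of the others. Sesn2, of the first of these lists, differed between the sexes in its change at 2 mg/kg (-0.78 ± 0.19, 0.0335).

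Markers of other liver cells also changed at 2 mg/kg, and the means per rat below keep slide effects. Of 9 bile duct markers, 5 were called in males at 2 mg/kg, all higher, with a list median of 0.69; the 4 with the largest change were Cftr (0.94), Epcam (0.92), Krt19 (0.76) and Tspan8 (0.75). The mean log2 ratio of the 9 lay between -1.35 and -0.98 in control males and between -1.14 and -0.08 at 2 mg/kg, with rat 87 the highest and rat 86 the lowest, as for Gpx2. In females 2 of 9 were called, Tspan8 (0.76) and Epcam (0.60), and the mean lay between -1.28 and -1.07 in controls and between -0.87 and -0.60 at 2 mg/kg. Of 7 stellate cell markers 3 were called in males (Timp1 0.91, Lrat 0.90 and Col3a1 0.85) and 0 in females. The mean of the 7 was -0.20 in rat 87 and -0.82 in rat 84, beside -1.80 to -1.15 in control males. Rats 86 (-1.20), 81 (-1.53) and 83 (-1.56) lay within that control range, although rat 86 was the lowest of the treated males for Gpx2. Among 9 hepatocyte markers 0 had a change above 0 in males at 2 mg/kg, and the list median was -0.40. In males 5 of the 9 passed the adjusted p, all lower, and of these Tat was called (-1.04 ± 0.24, 0.00164). Of 3 erythroid markers 2 were called lower in males (Hbb -0.77 and Slc4a1 -0.70), and 0 of 9 macrophage and 0 of 2 neutrophil markers were called in either sex. Below the fold limit, 3 macrophage markers passed the adjusted p in males and 1 in females, all lower. For these marker counts, too, the share of all probes that passed the adjusted p alone was not counted. The part of these cell types in the changes of Gpx2, Srxn1 and Nqo1 was not tested. In whole liver a change in the number of cells of a type and a change in RNA per cell cannot be told apart.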

How the data were processed

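Per the file headers, the authors quantified each array in version 10.7.3.1 of Agilent Feature Extraction; the deposited values are spot intensity in both channels, a log10 ratio and quality marks, 1 file per array. The authors' deposited table of log2 ratios was used as an alternative only. Of its 49 columns, 39 correlated best with the scanner file of another animal of the same group and 7 with their own, at r of at least 0.98, and 3 reached that with no file of the group, so it was used by group without slide.

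Intensities were background-corrected (normexp, offset 50) and loess-normalised in limma 3.58.1 under R 4.3.3, and spots of a probe were averaged. Of 30367 probes, 18004 were named through RefSeq. Probes well above background in liver on at least 4 arrays of 1 group were tested (17661) in 1 fit of sex and dose, with slide as a block and Benjamini-Hochberg adjustment over all probes. The array with under 20% of liver spots well above background was left out. No deposited sample column went unused (0). Groups came from the labels and slides from the file names.

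Named genes were the 9 members by their brighter probe, the called genes of the other lists (at most 4 per list and sex), Nfe2l2 and Keap1, and the 3 genes most correlated with each member. The members and lists were chosen with earlier results of these data known. The fit was tested on simulated data of 17661 probes for 2 mg/kg in males: it called 91% of probes changed by 0.8 and 99% of those changed by 1.5 on the log2 scale. The simulation gave a probe the same normal spread in every group. In the data the SD in control males and at 2 mg/kg was 0.33 and 0.99 for Gpx2, 0.16 and 0.67 for Srxn1 and 0.53 and 0.58 for Nqo1. Recovery under an unequal spread was not simulated. The number of arrays limits the precision. 1 further gene list is not reported here.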

Additional observations from a re-analysis of the deposited data

Results flagged for a closer look

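By its brighter probe, the furan effect on Gpx2 at 2 mg/kg was larger in males than in females by 1.98 ± 0.45 on the log2 scale (adjusted p = 0.0236 by limma). The dimmer probe gave 0.92 ± 0.26 and was not called (adjusted p = 0.0562 by limma). The call was lost in 6 of 16 alternatives and in 3 of 20 fits that left out 1 array. Within males, 5 of 5 treated rats lay above all their controls. The share of all probes with such a separation was not counted.

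On ratios with slide effects left in, in groups of 5 rats, 6 of 63 combinations of member and group held 1 rat far from the other 4, where chance gives about 1 in 20, or 3.15. Nqo1 was -2.37 in female 72 at 0.5 mg/kg, with the next at -1.73. Txnrd1 was 1.07 in female 62 at 0.5 mg/kg (next 0.37) and 1.18 in female 83 at 2 mg/kg (next 0.34). Hmox1 was -0.63 (-0.628) in control male 3 (next -0.97) and -1.01 in female 64 at 0.5 mg/kg (next -0.77). Ephx1 was 3.29 in control male 6, with the next at 4.07. With slide effects removed, 0 of these 6 rats stood apart: Nqo1 was -1.83 in female 72 (group -2.01 to -1.48), Txnrd1 was 0.56 in female 62 (next 0.53) and 0.67 in female 83 (next 0.60), Hmox1 was -0.94 in control male 3 (next -0.97) and -0.77 in female 64 (group -0.88 to -0.65), and Ephx1 was 3.70 in control male 6, where the lowest was 3.68. On those values 5 of 63 combinations held 1 rat far from the other 4: Txnrd1 in male 87 at 2 mg/kg (1.41, next 0.64), Gpx2 in control male 3 (-5.05, next -4.04), Ephx1 in control female 4 (3.72, next 3.06), and Hmox1 in male 41 (-1.28, next -0.96) and female 45 (-0.92, next -0.76) at 0.12 mg/kg.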

How the results depend on the processing

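The rise of Gpx2 in males at 2 mg/kg stayed called in all 17 alternatives (log2 change 1.83 to 2.78) and in all 10 fits that left out 1 array (2.11 to 2.83). The count of called members in males at 2 mg/kg, 3, lay between 1 and 5 over 17 alternatives. It was 5 by adjusted p alone (Gclc and Txnrd1 added) and 1 without male 87 and without the slide block. Among single members, the call of Nqo1 was lost in 3 of 16 alternatives and that of Srxn1 in 1 of 17. Gclc gained a call in 2 of 17, Txnrd1 in 1 and Ephx1 in 1. In females, 1 became 0 with no slide block, with all 49 arrays with or without it, under median centring, in each sex fitted on its own, with the series matrix values and without slides 5 and 6. Between 0.5 and 2 mg/kg in males, 3 became 1 with no slide block, with all 49 arrays and the block, or without slides 5 and 6, and 0 with all 49 arrays and no block, in each sex fitted on its own, with the series matrix values and without male 87 and the block. For the difference between the sexes, 1 became 0 with no slide block, with all 49 arrays with or without it, with the series matrix values, without slides 5 and 6, and without male 87 and the block. Between controls, 2 became 4 by adjusted p alone, 1 with no filter, with the mean over probes and without slides 5 and 6, and 0 with no slide block, with all 49 arrays with or without it and with the series matrix values. The causes were not tested. The alternatives without slides 5 and 6, and without male 87 and the block, were chosen after seeing the data.

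Directions turned only for values near 0: Txnrd1 in females was -0.010 with no slide block and with all 49 arrays and no block, and -0.012 with the series matrix values, its difference between the sexes was -0.043 with array weights, and Hmox1 in males was -0.029 without male 87 and the block. Leaving out 1 array at a time gave 2 to 4 called members in males and 0 to 1 in females at 2 mg/kg, 3 to 4 between 0.5 and 2 mg/kg in males and 0 to 0 in females, 0 to 3 for the difference between the sexes, 1 to 4 between controls and 0 to 0 at every lower dose. It turned Gclc in females (-0.19 to 0.046) and the sex difference of Txnrd1 (-0.11 to 0.24).

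Some males and females share an animal number but not an animal. With animal number as a replicate block (correlation 0.0213) beside slide, 3 members were called in males, 1 in females, 1 for the difference between the sexes and 2 between controls, as without it. Depth was limited by signal over background: Nqo1 was not tested where every array had to be well above background.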
